A study of Mus musculus with 9 samples.

Results

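The comparison described here set the embryoid bodies that carried a hairpin against Pfkp (sh-Pfkp) directly against those that carried a hairpin against Lin41 (sh-Lin41). It took 6 of the 9 RNA-seq libraries of the study, 3 for each hairpin, chosen by their labels, and all 22322 genes of the deposited tables, joined by gene identifier. The 3 libraries with a control hairpin (sh-ctrl) were no side of the contrast. Their values are given beside some genes for scale, and they entered the model as a group of their own to estimate the spread.

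All 9 libraries came from R1, a mouse embryonic stem cell line, and every group was grown as embryoid bodies for 6 days in suspension without LIF, the cytokine that holds mouse embryonic stem cells in self-renewal. The groups differed in the hairpin alone as far as the labels say. The labels name 1 hairpin for each gene, with no second hairpin and no rescue, and they are silent on whether replicate libraries were grown as separate cultures or clones. The p-values below therefore reflect only the scatter among these libraries, some or all of which may be technical.

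Pfkp encodes the platelet-type isoform of phosphofructokinase, the enzyme that commits glucose to glycolysis. Lin41, whose gene is Trim71, encodes a TRIM-NHL protein that binds and represses mRNAs in stem and progenitor cells and whose own mRNA is a classic target of the let-7 microRNA family. Both genes are expressed in pluripotent cells, and Trim71 is known for holding cells in proliferation and away from early differentiation. In a direct contrast a gene that both hairpins moved equally shows no difference, so the values below describe how the 2 knockdown states differed from each other.

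Each knockdown library held between 17549322 and 20607683 reads assigned to genes, and 13158 genes passed a filter on low counts and were tested. Levels are given as CPM, that is read counts relative to library size, scaled by the trimmed mean of M-values. A gene is called where edgeR's quasi-likelihood test gave a Benjamini-Hochberg adjusted p under 0.05 over all 13158 genes, and every log2 fold change is sh-Pfkp minus sh-Lin41. By that rule 3603 genes (27.4% of those tested) were higher in sh-Pfkp and 3652 (27.8%) were lower, 55.1% in all. Most differences were small. The median size over called genes was 0.30 on the log2 scale, and 591 genes (4.49%) were called and differed by at least 2-fold, 193 (1.47%) higher and 398 (3.02%) lower. The groups did not overlap, that is every library of 1 hairpin lay above every library of the other, for 59.8% of the genes tested. The share called rose with the level, from 34.0% of the genes under 5 CPM through 51.4% of those from 5 to 30 CPM to 69.9% of those at 30 CPM or more. The median over all tested genes was -0.01. The gene lists counted below were chosen with earlier results of these data known, so their counts are descriptions. An alternative on log2(FPKM + 1) understates the change of low genes by its construction, so its value is given, beside the gene or in a sentence on its group, where it differs by over 1.5 times or where the call is lost.

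**Figure D1:**
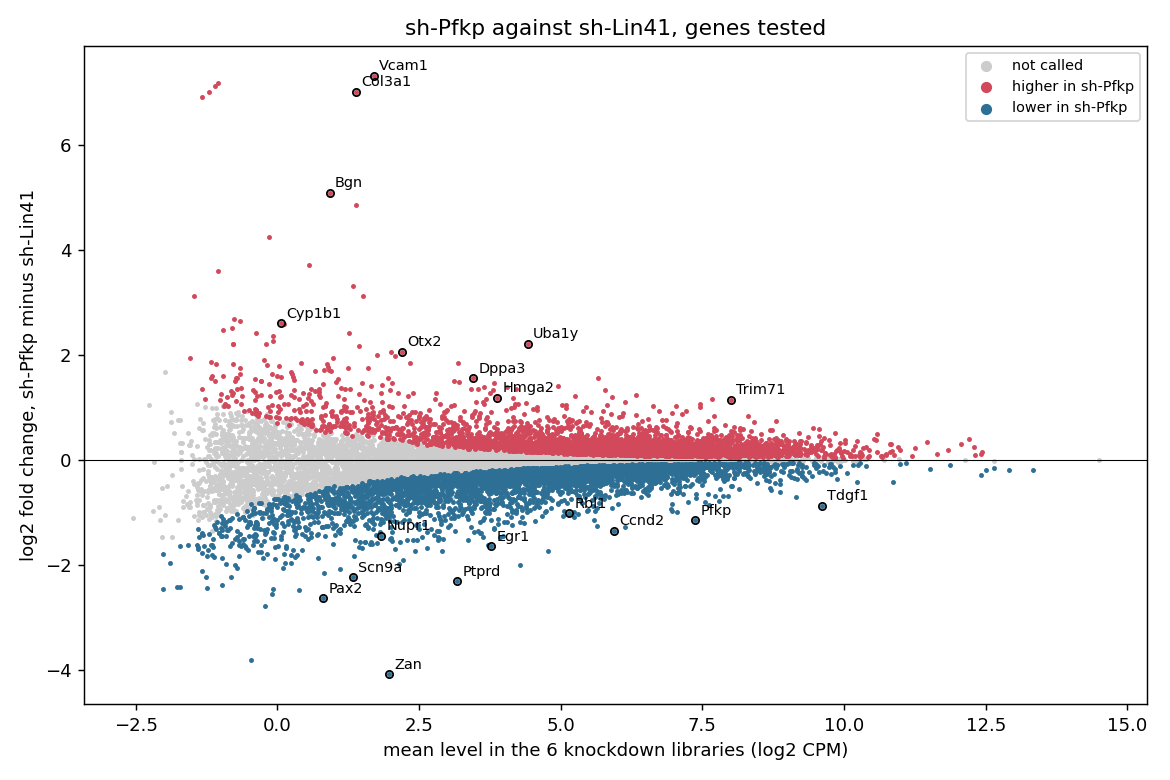
Each point is 1 of the 13158 genes tested. The horizontal axis is the mean level over the 6 knockdown libraries (log2 CPM) and the vertical axis the log2 fold change, sh-Pfkp minus sh-Lin41. Genes called higher in sh-Pfkp are red, genes called lower are blue and genes not called are grey. The furthest points above 0 are genes of low level such as Vcam1 and Col3a1, while Trim71 at 1.14 and Pfkp at -1.14 lie further from 0 than nearly all genes of their level.

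The targeted genes were checked first. Pfkp measured 102, 101 and 105 CPM in the 3 sh-Pfkp libraries, 233, 227 and 222 CPM in the 3 sh-Lin41 libraries and 248, 245 and 248 CPM in the controls (log2 fold change -1.14, SE 0.0270, adjusted p = 1.3e-25). Trim71 measured 349.6, 359.9 and 347 CPM in sh-Pfkp, 165, 158 and 156 CPM in sh-Lin41 and 273, 264 and 269.7 CPM in the controls (log2 fold change 1.14, SE 0.0249, adjusted p = 1.6e-26). Each targeted mRNA was lowest in the libraries that carry its hairpin, with no overlap between groups, so the labels hold for both. Trim71 was also higher in sh-Pfkp than in every control library.

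The largest differences in favour of sh-Pfkp were in genes of the extracellular matrix and of stromal cells. Col3a1, a fibrillar collagen, had 111, 105 and 76 reads in the sh-Pfkp libraries, 0, 2 and 0 in sh-Lin41 and 0, 1 and 1 in the controls. Vcam1, an adhesion receptor of stromal and endothelial cells, had 135, 103 and 121 reads in sh-Pfkp, 0, 1 and 1 in sh-Lin41 and 0, 1 and 0 in the controls. Both genes were close to absent outside the sh-Pfkp libraries and present in all 3 of those. The ratio of summed reads, scaled to library size, was 189.6 for Vcam1 (exact 95% interval 52.1 to 1571) and 154 for Col3a1 (42.3 to 1279), and these intervals cover counting error only. Both sh-Lin41 reads of Col3a1 were in replicate 2, and without that library the fitted log2 fold change of Col3a1 was 9.57, a value that then rests on no read in sh-Lin41 and is no bound. On the log2(FPKM + 1) scale the values were 1.53 for Vcam1 and 1.29 for Col3a1, both still called. Both genes passed the filter through the sh-Pfkp libraries, so these calls are a description and no support.

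Further matrix genes had the same pattern over the libraries. Col1a2, a chain of type I collagen, had 103, 94 and 86 reads in sh-Pfkp and 6, 2 and 2 in sh-Lin41, and Bgn, the proteoglycan biglycan, had 70, 64 and 71 and 2, 3 and 1. Col5a2, a chain of type V collagen, had 46, 57 and 50 reads in sh-Pfkp and 6, 3 and 3 in sh-Lin41. The log2 fold changes were 4.85, adjusted p = 2.3e-14 for Col1a2, 5.09, adjusted p = 2.8e-13 for Bgn and 3.71, adjusted p = 1.4e-10 for Col5a2 by edgeR, and none of these groups overlapped. These genes had few reads in the controls too and passed the filter through the sh-Pfkp libraries. Their p-values and lack of overlap are therefore a description and no support. Without sh-Lin41 replicate 1, the library with 6 of the 10 reads of its group, the value for Col1a2 was 5.54. On a log2(FPKM + 1) scale the values were 0.94 for Col1a2, 1.27 for Bgn and 0.45 for Col5a2.

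Thbs1, the matrix protein thrombospondin 1, measured 5.58, 4.82 and 4.95 CPM in sh-Pfkp against 0.854, 0.241 and 0.661 CPM in sh-Lin41 (log2 fold change 3.13, SE 0.257, adjusted p = 4.8e-12). Cd109, a membrane protein that binds TGF-beta, measured 4.32, 5.23 and 4.25 CPM and 0.352, 0.482 and 0.551 CPM (log2 fold change 3.31, SE 0.239, adjusted p = 2.2e-13). Control levels differed between these genes: Thbs1 averaged 0.453 CPM in sh-ctrl, near sh-Lin41, while Cd109 averaged 3.17 CPM there, nearer to sh-Pfkp. The same was true of the calcium-binding protein gene S100a6, at 4.03 ± 0.910 CPM in sh-Pfkp, 0.763 ± 0.375 CPM in sh-Lin41 and 3.23 ± 0.220 CPM in sh-ctrl (mean ± SD, n = 3; 2.42). The other genes among the 12 furthest in this direction were Cyp1b1 (2.60), S100a13 (2.58), Sh2d4b (2.16) and the Y-linked Uba1y (2.21). On the log2(FPKM + 1) scale the values were 0.75 for Thbs1, 0.71 for Cd109, 1.57 for S100a6, 0.34 for Cyp1b1, 1.31 for S100a13 and 1.01 for Sh2d4b, each still called. Cyp1b1 and S100a13 passed the filter through the sh-Pfkp libraries, so their calls are a description and no support. Thbs1 was near the limit of the filter outside the sh-Pfkp libraries and clearly above it only within them. Its call too is a description and no support.

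Counted over the list of mesenchymal and matrix genes, 25 of 32 members were tested, 13 were higher and 5 lower in sh-Pfkp, 7 were not called, and 10 of the 13 were higher by at least 2-fold. Some of these members passed the filter through the sh-Pfkp libraries alone and so had to differ, so the count is a description and no support. Tgfbi (-0.85), Loxl2 (-0.79) and Tgfb1 (-0.71), a matrix protein induced by TGF-beta, a collagen cross-linking enzyme and TGF-beta 1 itself, were the members furthest in the other direction. Dcn, the proteoglycan decorin, had 22, 14 and 16 reads in sh-Pfkp and 0 in each of the other 6 libraries. The exact 95% interval of its ratio to sh-Lin41 began at 14.4, and such intervals cover counting error only. Postn, the matrix protein periostin, which was under the filter, had 28, 2 and 17 reads in sh-Pfkp and 0 in sh-Lin41 (interval from 12.9), and smooth muscle actin Acta2 had 10, 21 and 8 and 0 (interval from 10.6). The reads for Postn were uneven among the sh-Pfkp libraries, with 2 in replicate 2.

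The list of fibroblast and stroma markers had a higher summed level in sh-Pfkp, with members on both sides. Its 15 members summed to 33.0 to 38.5 CPM in the sh-Pfkp libraries, 13.5 to 16.2 CPM in sh-Lin41 and 18.2 to 19.12 CPM in the controls, and 1, 5 and 5 of the 15 had no read in the group. Of its 10 tested members 6 were higher and 2 lower in sh-Pfkp, and Thy1 (-0.91) and Pdgfrb (-0.84), surface markers of fibroblasts and mural cells, were the 2 lower ones. The 6 higher members include Vcam1, Col3a1, Col1a2 and Dcn, which had few or no reads outside sh-Pfkp and passed the filter through those libraries, so this count too is a description and no support. Fap, a defining marker of activated fibroblasts, was at 0 in sh-Pfkp. The part of such cells in the differences of the matrix genes was not tested. In bulk samples, fewer cells of a type and less RNA per cell cannot be told apart.

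**Figure D2:**
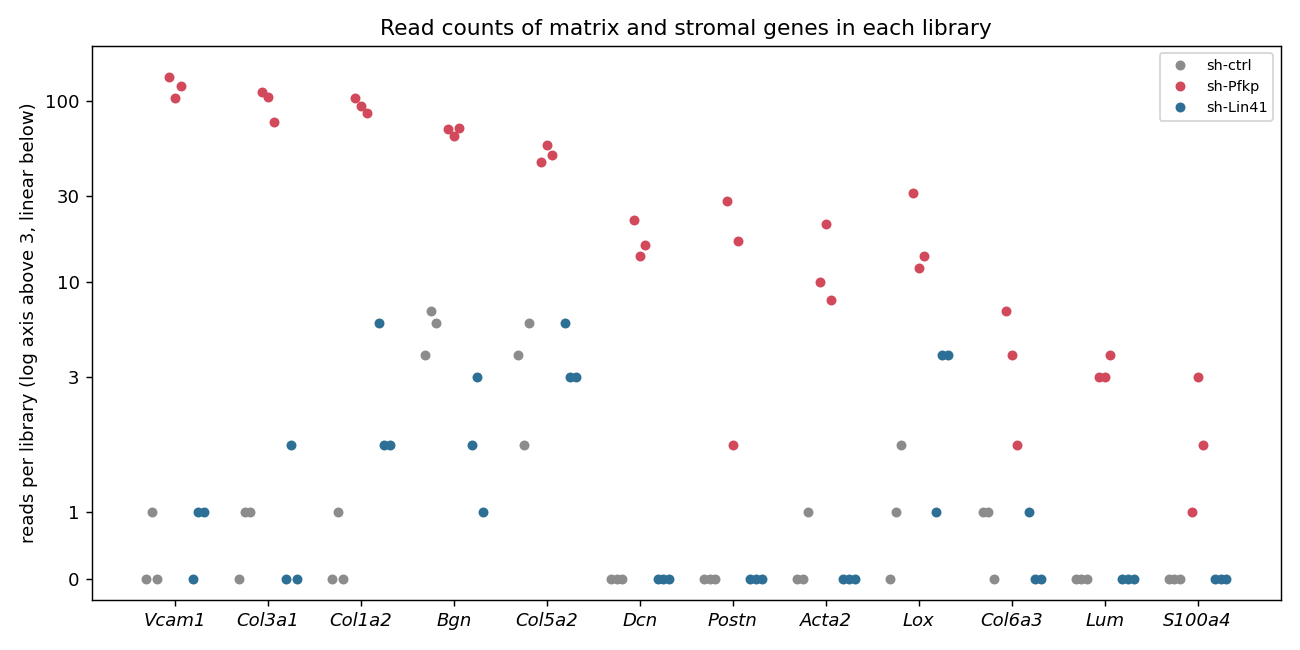
Reads per library for 12 matrix and stromal genes, with 3 libraries per hairpin (grey sh-ctrl, red sh-Pfkp, blue sh-Lin41). The vertical axis is logarithmic above 3 reads and linear below. For Vcam1, Col3a1, Col1a2, Bgn, Col5a2, Dcn and Acta2 every sh-Pfkp library lies above every other library, and Dcn, Postn, Lum and S100a4 have 0 reads in all 6 other libraries.

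The largest differences in favour of sh-Lin41 were in genes of varied function, several of them known from neurons. Zan, which encodes the sperm protein zonadhesin, measured 0.211, 0.359 and 0.756 CPM in sh-Pfkp against 9.14, 6.51 and 6.55 CPM in sh-Lin41 (log2 fold change -4.08, SE 0.256, adjusted p = 7.8e-15). Ptprd, a receptor tyrosine phosphatase of neurons, measured 2.42, 2.77 and 4.01 CPM and 15.0, 15.2 and 15.0 CPM (log2 fold change -2.31, SE 0.134, adjusted p = 1.2e-15). Islr2, a neuronal membrane protein, measured 7.69, 7.69 and 7.74 CPM and 31.8, 30.1 and 31.1 CPM (log2 fold change -2.01, SE 0.0871, adjusted p = 6.6e-19). The sh-Lin41 libraries were the high ones for all 3 genes, with no overlap, and the controls were nearer to sh-Pfkp, at 0.916, 4.45 and 5.46 CPM.

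For Pax2 and Scn9a, also among these 12, the sh-Pfkp libraries were the low side. Pax2, a transcription factor of the developing kidney and midbrain, measured 0.579, 0.513 and 0.349 CPM in sh-Pfkp against 2.96, 3.42 and 2.70 CPM in sh-Lin41 (-2.63), beside a control mean of 2.26 CPM. Scn9a, a voltage-gated sodium channel, measured 0.895, 0.923 and 0.815 CPM and 4.62, 4.44 and 3.41 CPM (-2.24), with 3.19 CPM in the controls. Aph1b, a gamma-secretase subunit, averaged 0.391 CPM in sh-Pfkp and 2.22 CPM in sh-Lin41 (-2.47, and -3.12 without sh-Pfkp replicate 2). The remaining genes were Itpr2 (-2.16), Prkcb (-2.07), Ppp1r1b (-2.05), Tm9sf5 (-1.98), Ankrd34b (-1.97) and Nrg2 (-1.96), and all 12 kept their call under each of the 21 other settings run. For Itpr2 and Tm9sf5 sh-Lin41 was the high side, with sh-Pfkp (0.643 and 1.78 CPM) above the controls (0.160 and 0.771 CPM). Itpr2 was near or under the limit of the filter outside the sh-Lin41 libraries, so its calls are a description and no support. On the log2(FPKM + 1) scale Zan was at -0.56, Ptprd at -1.08, Pax2 at -0.76, Scn9a at -0.45, Aph1b at -0.44, Itpr2 at -0.34, Prkcb at -0.82, Ppp1r1b at -0.63, Tm9sf5 at -1.26, Ankrd34b at -0.39 and Nrg2 at -0.95. The list of neuroectoderm and neuron markers did not go 1 way: 4 of its 11 tested members were higher in sh-Pfkp and 3 lower, with Neurod1 at 1.16, Pax6 at 1.10 and Map2 at -1.02.

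Genes of the core and naive pluripotency network differed in most members, and more of them were lower in sh-Pfkp. Of 26 members, all tested, 16 were lower, 7 higher and 3 not called, with a median of -0.23 against -0.01. The share called was 88.5%, against 55.1% of all genes and 69.9% of genes at 30 CPM or more. Tdgf1, the NODAL co-receptor Cripto, measured 542, 563 and 549 CPM in sh-Pfkp against 1025, 1011 and 993 CPM in sh-Lin41 (log2 fold change -0.87, SE 0.0176, adjusted p = 4.3e-27). The sh-Lin41 libraries were close to the controls here (984 ± 2.39 CPM, mean ± SD, n = 3), and the sh-Pfkp libraries were the low ones. Klf4, a naive pluripotency factor, measured 180.3, 173 and 183 CPM and 287, 289 and 291 CPM (log2 fold change -0.69, SE 0.0245, adjusted p = 3.5e-21), with the controls at 209 CPM between the groups. Klf5, its relative, averaged 189 CPM in sh-Pfkp, 305 CPM in sh-Lin41 and 167 CPM in sh-ctrl (-0.69).

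The pluripotency genes that were higher in sh-Pfkp included Dppa3, Lin28a and Gdf3. Dppa3, a maternal factor that guards methylation in the early embryo and marks germ cells, measured 16.8, 16.9 and 15.2 CPM in sh-Pfkp against 6.08, 5.596 and 5.01 CPM in sh-Lin41 (log2 fold change 1.55, SE 0.105, adjusted p = 5e-14). The controls, at 17.6, 21.7 and 17.7 CPM, lay near sh-Pfkp, so the sh-Lin41 libraries were the low ones. Gdf3, a NODAL-type ligand, averaged 112 CPM in sh-Pfkp, 75.2 CPM in sh-Lin41 and 69.0 CPM in sh-ctrl (0.58), where sh-Pfkp was the high side. In the LIF and STAT3 list 6 of 11 members were lower and 3 higher in sh-Pfkp: the kinase gene Jak2 was at -0.63, the feedback inhibitor Socs3 at 0.35 and the shared receptor subunit Il6st at 0.32.

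Otx2, a transcription factor of the formative epiblast, differed most among the formative and primed genes. It measured 7.84, 6.67 and 7.68 CPM in sh-Pfkp, 2.11, 1.54 and 1.65 CPM in sh-Lin41 and 1.77, 2.24 and 1.58 CPM in the controls (log2 fold change 2.06, SE 0.167, adjusted p = 3.4e-12; 1.33 on the log2(FPKM + 1) scale). Only the sh-Pfkp libraries were high. Sox3, an early neural and epiblast factor, went the other way, at 1.63, 1.85 and 1.28 CPM and 4.67, 5.07 and 4.73 CPM (log2 fold change -1.59, SE 0.186, adjusted p = 9.7e-09; -0.94 on the log2(FPKM + 1) scale). Of 18 members of that list 16 were tested, 6 were higher and 2 lower, a share called near the 55.1% of all genes; 2 further members were called lower with scaling by total count alone.

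Both de novo DNA methyltransferase genes tested were higher in sh-Pfkp, while the demethylation gene Tet2 and the imprint factor gene Zfp57 were lower, and the list as a whole was split. Dnmt3a, a de novo methyltransferase, measured 134, 143 and 142 CPM in sh-Pfkp against 71.5, 73.7 and 75.6 CPM in sh-Lin41 (log2 fold change 0.93, SE 0.0333, adjusted p = 4.7e-21), beside 115 CPM in sh-ctrl. Dnmt3b, the second such enzyme, averaged 253 and 166 CPM (0.61), with the controls at 242 CPM. Tet2, a 5-methylcytosine oxidase, measured 437, 427 and 443 CPM in sh-Pfkp against 710.0, 719.5 and 696 CPM in sh-Lin41 (log2 fold change -0.70, SE 0.0192, adjusted p = 8.6e-24). Zfp57, a zinc finger protein that maintains methylation at imprinted genes, averaged 369 and 567 CPM (-0.62). In all 4 genes the controls lay nearer to sh-Pfkp, and no groups overlapped. Over the list 7 of 15 tested members were higher and 6 lower, and Dnmt1 and Tet1 were not called. Polycomb genes were near the background, with 7 of 26 higher, such as Rybp (0.57), and 6 lower, such as Epop (-0.58), both cofactors of these repressive complexes.

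**Figure D3:**
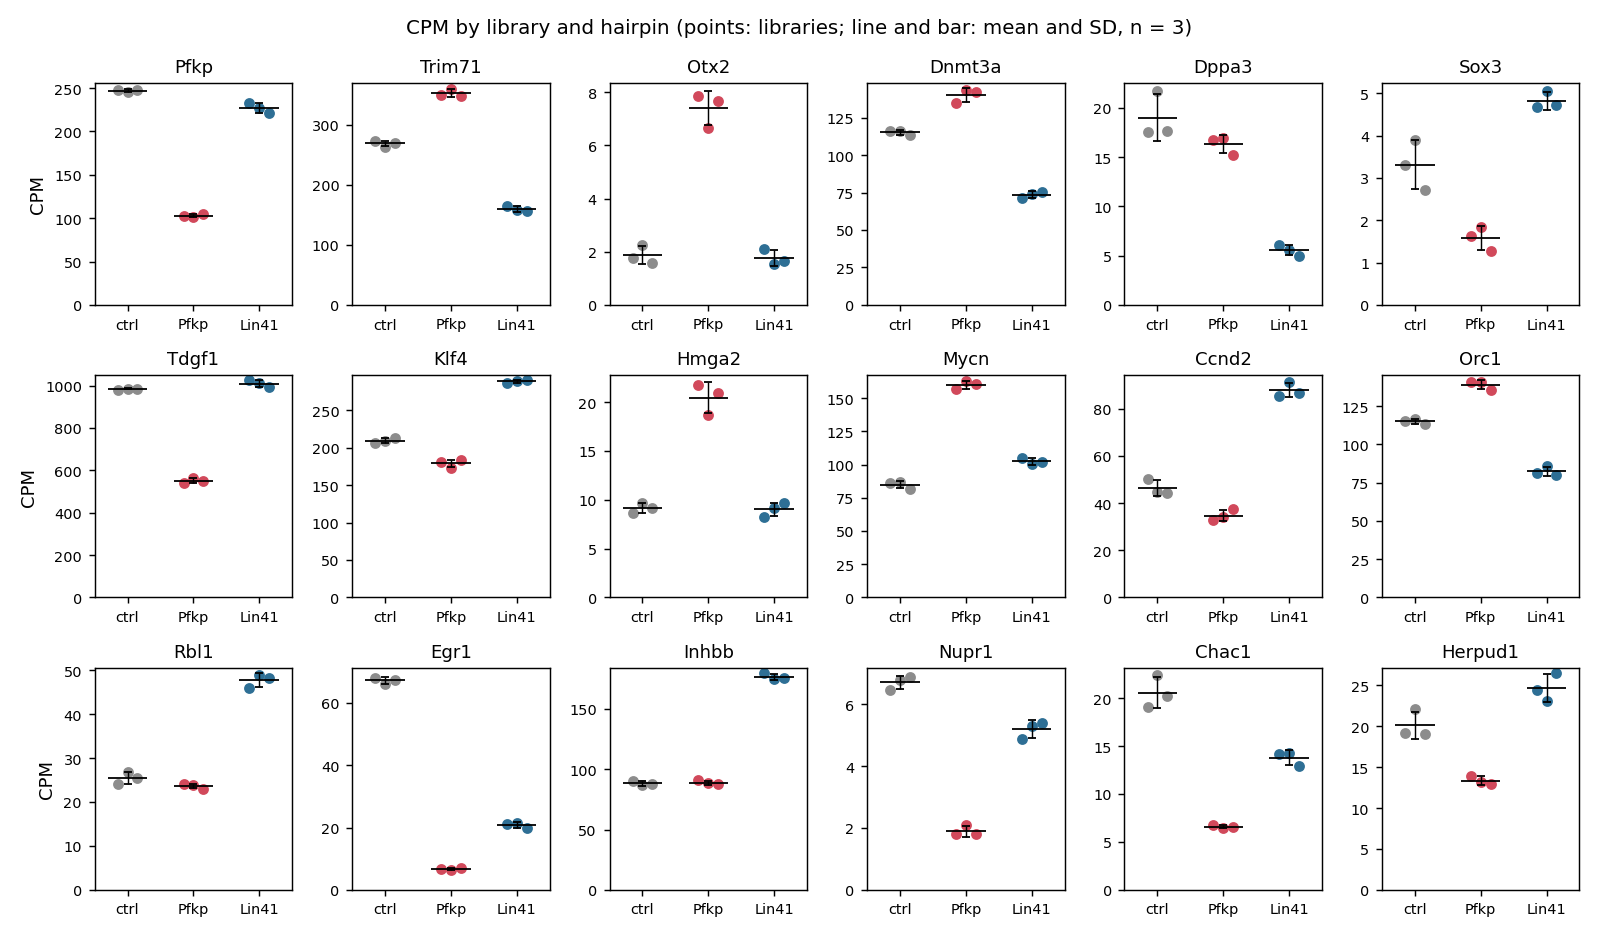
CPM by library for 18 genes named in the text, 1 panel a gene, with its own linear axis from 0. Points are libraries, the line is the mean and the bar the SD (n = 3) for sh-ctrl (grey), sh-Pfkp (red) and sh-Lin41 (blue). Otx2 and Hmga2 are high in sh-Pfkp alone, Rbl1, Inhbb and Ccnd2 are high in sh-Lin41, and no panel has a sh-Pfkp library inside the range of the sh-Lin41 libraries.

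The mRNAs described as bound and repressed by Trim71 were lower in sh-Pfkp, that is higher where Trim71 itself was lower. Of 9 members 8 were tested and 7 of these were lower in sh-Pfkp (87.5%, against 27.8% of all genes lower), none was higher, and the median was -0.75. This list too was chosen with earlier results of these data known. The counts of 7 and 0 were the same at an unadjusted p under 0.05 by edgeR and after adjustment by DESeq2 and by limma-voom. Rbl1, a pocket protein of the retinoblastoma family, measured 24.1, 23.8 and 23.0 CPM in sh-Pfkp, 45.8, 48.9 and 48.3 CPM in sh-Lin41 and 24.0, 26.9 and 25.4 CPM in the controls (log2 fold change -1.01, SE 0.0535, adjusted p = 1.1e-16). Inhbb, an activin subunit, measured 90.7, 88.2 and 87.4 CPM in sh-Pfkp against 179.5, 175 and 175 CPM in sh-Lin41 (log2 fold change -0.99, SE 0.0298, adjusted p = 6.9e-23). For both genes the sh-Pfkp libraries were close to the controls (88.2 CPM for Inhbb) and the sh-Lin41 libraries were high. The remaining members, named after their values were seen, were Plxnb2 (-0.94), Mbnl1 (-0.57), E2f7 (-0.23) and Cdkn1a (-0.15), all called, and Rbl2 (-0.12), which was not called; Hoxa5 was under the filter.

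Egr1, an immediate early transcription factor and a member of the same list, had another pattern. It measured 6.69, 6.51 and 6.87 CPM in sh-Pfkp, 21.2, 21.3 and 19.8 CPM in sh-Lin41 and 68.1, 66.1 and 67.5 CPM in the controls (log2 fold change -1.64, SE 0.0767, adjusted p = 5.5e-18). Both knockdown groups were below the controls, sh-Pfkp further than sh-Lin41. Mbnl1, a splicing regulator, measured 22.6, 21.2 and 26.2 CPM in sh-Pfkp, 34.2, 34.2 and 35.0 CPM in sh-Lin41 and 12.1, 14.8 and 12.8 CPM in the controls, so both knockdown groups were above them.

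The let-7 family and the LIN28 proteins form the switch that sets Trim71 levels: LIN28 blocks the maturation of let-7, and mature let-7 pairs through its seed with mRNAs such as Hmga2, Lin28a and Trim71. The mature mouse let-7a is shown with the first seed match in the longest annotated 3' UTR of these 3 mRNAs. A hairpin target, Trim71, and the differing genes Hmga2 and Lin28a below carry such matches. The microRNA is from RefSeq (GRCm38.p6) and the sites from GENCODE M21 transcripts, written 5' to 3' with the seed or its match in capitals.
mmu-let-7a-5p: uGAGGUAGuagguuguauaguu
Hmga2 site: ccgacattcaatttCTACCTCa
Lin28a site: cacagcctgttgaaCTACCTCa
Trim71 site: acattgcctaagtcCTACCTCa
The 3' UTRs of Hmga2 and Trim71 held 4 such matches each, that of Lin28a 2 and that of Mycn, another differing gene below, 0. Of the tested genes with an annotated 3' UTR 10.8% held at least 1. MicroRNAs were not measured here.

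Hmga2, a chromatin protein of growing embryonic tissue, differed most among the members of the LIN28 and let-7 list. It measured 21.8, 18.7 and 20.9 CPM in sh-Pfkp, 8.29, 9.12 and 9.64 CPM in sh-Lin41 and 8.64, 9.72 and 9.11 CPM in the controls (log2 fold change 1.18, SE 0.0895, adjusted p = 6.7e-13), so the sh-Pfkp libraries alone were high. Mycn, a MYC family factor, measured 156, 163 and 160.3 CPM in sh-Pfkp against 105, 100.3 and 102 CPM in sh-Lin41 (log2 fold change 0.64, SE 0.0305, adjusted p = 7.2e-18), with 84.9 CPM in sh-ctrl. Lin28a measured 347, 343 and 354 CPM and 231, 231 and 226 CPM (log2 fold change 0.60, SE 0.0221, adjusted p = 8.2e-21), with the controls between the groups at 299 CPM. The list as a whole was split, with 8 of 19 members higher and 7 lower, among the latter Arid3a (-0.34) and Nras (-0.30). Of the 12 members with a seed match 7 were higher, 4 lower and 1 not called, and of the 7 without one 1 was higher, 3 lower and 3 not called. Over all tested genes with a match the balance was the other way, 325 of 1409 higher and 492 lower, beside 3239 and 3136 of the 11595 without a match.

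In the microRNA machinery 6 of 13 members were higher and 3 lower in sh-Pfkp. The processing enzymes Drosha (0.38) and Dicer1 (0.32) and the DICER1 partner gene Tarbp2 (0.56) were higher, and Prkra (-0.69), which encodes another DICER1 partner, and Tnrc6b (-0.59), an effector of silencing, were lower. On the log2(FPKM + 1) scale 5 members were called lower.

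Regulators of G1 were split, with more members lower than higher in sh-Pfkp, and genes of replication and mitosis were more often higher. Ccnd2, a D-type cyclin, measured 32.7, 34.0 and 37.3 CPM in sh-Pfkp against 85.5, 91.3 and 86.8 CPM in sh-Lin41 (log2 fold change -1.34, SE 0.0489, adjusted p = 6.7e-21), with the controls at 46.4 CPM nearer to sh-Pfkp. The CDK4 and CDK6 inhibitor gene Cdkn2c averaged 1.53 and 3.37 CPM (-1.14), and the E-type cyclin genes Ccne1 (0.37) and Ccne2 (0.31) and the D-type Ccnd3 (0.26) were higher. Over the 22 members of the G1 list, all tested, 10 were lower, 6 higher and 6 not called.

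Orc1, the largest subunit of the origin recognition complex, measured 141, 141 and 135 CPM in sh-Pfkp against 81.3, 85.8 and 79.9 CPM in sh-Lin41 (log2 fold change 0.75, SE 0.0323, adjusted p = 4.9e-19), beside 115 CPM in sh-ctrl. Other replication genes differed less, among them the helicase subunit gene Mcm3 at 0.31 and the mitotic activator gene Cdc20 at 0.38. Mki67 (-0.31), Top2a (-0.26) and Ccnb2 (-0.19), markers of cycling and mitotic cells, were lower. Of the 24 members of the replication and mitosis list 15 were higher and 5 lower, with a median of 0.10. In all 83.3% were called, against 55.1% of all genes and 69.9% of those at 30 CPM or more. The count of higher members was 8 on the log2(FPKM + 1) scale, while 3 were lower without sh-Pfkp replicate 3 or by DESeq2. In the p53 list 10 of 18 tested members were higher and 4 lower (77.8% called, against 55.1% of all genes). Trp53 itself was at 0.41 and its target Phlda3 at 0.45, while the apoptosis genes Bbc3 (-0.48) and Pmaip1 (-0.42) were lower. On a log2(FPKM + 0.1) scale 6 of those 10 were called higher.

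Glycolysis, the pathway of the enzyme that sh-Pfkp targets, differed in most members by small amounts. Of 24 members besides Pfkp, 12 were lower, 7 higher and 5 not called (79.2% called, against 69.9% of genes at 30 CPM or more), with a median of -0.07, and no member differed by 2-fold. The neuronal-type glucose transporter gene Slc2a3 measured 1601, 1603 and 1614 CPM in sh-Pfkp against 2106, 2151 and 2151 CPM in sh-Lin41 (log2 fold change -0.41, SE 0.0142, adjusted p = 2e-21), and both groups were below the control mean of 2423 CPM. Pfkfb3, which makes the activator of phosphofructokinase, measured 46.4, 44.8 and 47.1 CPM in sh-Pfkp against 27.1, 26.8 and 27.4 CPM in sh-Lin41 (log2 fold change 0.77, SE 0.0502, adjusted p = 2.1e-14), with the controls highest at 55.6 CPM. The aldolase gene Aldoc (-0.44) was lower and the muscle enolase gene Eno3 (0.91) and the lactate dehydrogenase gene Ldhb (0.33) were higher. The other phosphofructokinase genes, named after their values were seen, were not called: Pfkl was at -0.03, adjusted p = 0.452 (0.0347 with scaling by total count alone) and Pfkm at 0.09, adjusted p = 0.154 by edgeR.

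Hypoxia response genes were split in the same way. Egln3, a prolyl hydroxylase induced by HIF, measured 35.3, 33.6 and 36.4 CPM in sh-Pfkp against 58.9, 58.9 and 60.2 CPM in sh-Lin41 (log2 fold change -0.76, SE 0.0439, adjusted p = 1.1e-15). Bnip3, a mitophagy receptor, averaged 97.2 and 139 CPM (-0.51), and the angiogenic factor gene Vegfa 43.5 and 60.1 CPM (-0.47). All 3 were highest in the controls, at 96.5, 248 and 89.6 CPM. Adm, the vasodilator peptide adrenomedullin, measured 5.001, 4.82 and 4.31 CPM in sh-Pfkp against 1.61, 1.40 and 1.16 CPM in sh-Lin41 (log2 fold change 1.75, SE 0.185, adjusted p = 1.2e-09; 1.10 on the log2(FPKM + 1) scale), so there sh-Lin41 was the low side. Of 20 members 8 were lower, 6 higher and 6 not called.

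Downstream of glycolysis, Pdk2, a kinase that inhibits pyruvate dehydrogenase, measured 3.58, 3.85 and 3.67 CPM in sh-Pfkp against 9.99, 10.8 and 8.92 CPM in sh-Lin41 (log2 fold change -1.42, SE 0.123, adjusted p = 1.5e-11). Its relatives were at -0.25 (Pdk1, lower) and 0.31 (Pdk3, higher). In the pyruvate and TCA list 8 of 22 members were lower and 5 higher, a share called near that of all genes, and the count of higher members was 3 on the log2(FPKM + 1) scale. In the pentose phosphate list 3 of 7 tested members were higher, with the epimerase gene Rpe at 0.54, and the transaldolase gene Taldo1 was lower (-0.45).

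Among the 13 protein genes of the mitochondrial genome 6 were lower and 3 higher in sh-Pfkp. The ATP synthase subunit genes mt-Atp8 (162 and 279 CPM, -0.79) and mt-Atp6 (-0.28) were among the lower ones, and mt-Nd4 (0.15) was higher, with 1 member higher on the log2(FPKM + 1) scale. These 2 ATP synthase genes overlap, so reads may be shared between them. Nuclear genes of the respiratory chain gave no direction that held: 6 were higher and 5 lower in the main analysis, and 3 higher and 9 lower with upper-quartile scaling. Of 26 cytosolic ribosomal protein genes 11 were lower, 1 was higher (Rplp0, 0.11, named after its value was seen) and 14 were not called, a share called of 46.2% that is under the background, with a median of -0.04 and the lowest at -0.25 for Rps18. The count of lower members was 23 with scaling by total count alone and 7 without sh-Lin41 replicate 1. In the cholesterol synthesis list 7 of 21 tested members were higher and 7 lower, with Idi1 at 0.48 and Hsd17b7 at -0.50.

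Genes of the integrated stress response, which ATF4 induces when amino acids run short or the endoplasmic reticulum (ER) is loaded, were more often lower than higher in sh-Pfkp. Of 18 members 17 were tested, 10 were lower, 2 higher and 5 not called (70.6% called, against 55.1% of all genes), with a median of -0.32. Nupr1, a stress-induced chromatin protein, measured 1.79, 2.10 and 1.80 CPM in sh-Pfkp, 4.87, 5.31 and 5.40 CPM in sh-Lin41 and 6.47, 6.78 and 6.87 CPM in the controls (log2 fold change -1.44, SE 0.158, adjusted p = 2.7e-09). Chac1, a glutathione-degrading enzyme, measured 6.74, 6.46 and 6.52 CPM, 14.2, 14.2 and 12.9 CPM and 19.11, 22.4 and 20.2 CPM in the same order (log2 fold change -1.07, SE 0.0971, adjusted p = 4.6e-11). In both genes the controls were highest and sh-Pfkp lowest, with no overlap between the knockdown groups. The hormone gene Stc2 was at -0.72 and, named after their values were seen, Atf4 was at -0.49, Trib3 at -0.53 and Atf3 at -1.15 (-0.38 on the log2(FPKM + 1) scale). The 2 members called higher, Asns (0.08) and Sesn2 (0.09), were no longer called with scaling by total count alone (adjusted p = 0.279 and 0.303), by upper quartile (0.160 and 0.208) or on the log2(FPKM + 1) scale (0.291 and 0.387), and Sesn2 was not called without sh-Pfkp replicate 1 (0.0678), sh-Pfkp replicate 3 (0.0716) or sh-Lin41 replicate 2 (0.0550).

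The promoters of 4 members that were lower are shown because each holds the 9-base composite element that CEBP and ATF factors bind in stress-induced genes, searched as TGATGNAAN on both strands. They are from RefSeq (GRCm38.p6), run 5' to 3' along the gene's strand from 250 bases before to 50 after the annotated start, and carry the match in capitals. Nupr1 lies at chr7:126625421-126625720 (minus strand), Atf3 at chr1:191183284-191183583 (minus), Chac1 at chr2:119350992-119351291 (plus) and Trib3 at chr2:152344011-152344310 (minus).
Nupr1: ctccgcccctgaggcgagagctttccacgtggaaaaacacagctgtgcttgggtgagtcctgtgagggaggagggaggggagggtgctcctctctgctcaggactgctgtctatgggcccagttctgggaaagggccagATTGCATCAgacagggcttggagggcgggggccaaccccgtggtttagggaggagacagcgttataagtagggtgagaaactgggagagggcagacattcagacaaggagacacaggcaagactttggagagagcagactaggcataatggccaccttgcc
Atf3: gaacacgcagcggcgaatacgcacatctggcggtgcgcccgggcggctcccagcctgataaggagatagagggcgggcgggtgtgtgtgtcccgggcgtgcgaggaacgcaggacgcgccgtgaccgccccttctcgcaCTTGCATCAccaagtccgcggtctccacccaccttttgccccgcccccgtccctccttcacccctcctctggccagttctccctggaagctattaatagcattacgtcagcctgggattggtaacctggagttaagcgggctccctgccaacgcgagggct
Chac1: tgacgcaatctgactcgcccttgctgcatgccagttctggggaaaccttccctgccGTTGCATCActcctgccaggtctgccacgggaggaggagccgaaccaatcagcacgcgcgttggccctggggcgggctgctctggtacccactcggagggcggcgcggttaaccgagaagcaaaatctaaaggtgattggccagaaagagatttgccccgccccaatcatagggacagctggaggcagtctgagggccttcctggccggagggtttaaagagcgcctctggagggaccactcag
Trib3: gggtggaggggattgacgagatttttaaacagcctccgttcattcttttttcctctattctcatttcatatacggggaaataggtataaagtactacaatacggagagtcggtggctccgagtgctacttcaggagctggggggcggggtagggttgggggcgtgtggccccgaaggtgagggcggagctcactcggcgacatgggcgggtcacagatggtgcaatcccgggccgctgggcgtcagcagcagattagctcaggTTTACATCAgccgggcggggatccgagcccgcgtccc
Of the 32851 promoters of this length 3.95% held the motif on either strand. In the stress response list 7 of the 16 genes with a promoter in the table held it. These were the 4 above, Asns, Vldlr (not called, -0.25) and Fgf21 (under the filter). In lists searched after values were seen, it was in Herpud1 of the ER list (1 of 15 genes), in 5 of 11 aminoacyl-tRNA synthetase genes, in 3 of 10 amino acid transporter genes (Slc1a4, -0.18, and Slc7a7, -0.39, called lower, and Slc7a11, 0.55, not called) and in 0 of 10 one-carbon genes. A match is a description of the letters and no evidence of binding. In the cholesterol list, the sterol element searched as TCACNCCAC was in the promoter of Hmgcs1 (called higher, 0.13) and in none of the other 13 genes with a promoter in the table, beside 1.24% of all promoters.

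Genes around the stress response were lower more often than higher. Herpud1, an ER-associated degradation factor, measured 13.9, 13.1 and 12.97 CPM in sh-Pfkp against 24.4, 23.1 and 26.5 CPM in sh-Lin41 (log2 fold change -0.88, SE 0.0763, adjusted p = 1.5e-11). Over the ER list 12 of 18 members were lower and 2 higher (median -0.13), a share called of 77.8% against 55.1% of all genes. The ER protein gene Sdf2l1 was at -0.64 and the transcription factor gene Xbp1 at -0.51. Slc7a1, a transporter of cationic amino acids, measured 92.5, 87.6 and 89.0 CPM in sh-Pfkp against 161, 160.5 and 159 CPM in sh-Lin41 (log2 fold change -0.84, SE 0.0294, adjusted p = 3.2e-21), with the controls between the groups at 125 CPM. The glycine transporter gene Slc6a9 (-0.62) and the glutamine transporter gene Slc1a5 (-0.57) were lower too, while Slc38a2 (0.42), a transporter of neutral amino acids, was higher, and 7 of 14 transporters were lower and 3 higher in all.

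The serine synthesis enzyme gene Psat1 was lower (-0.50), as were Psph (-0.32) and the mitochondrial folate enzyme gene Mthfd2 (-0.31), whereas the glycine cleavage gene Gldc was higher (0.65). That list had 5 of 12 members lower and 4 higher. Aminoacyl-tRNA synthetase genes were called in 17 of 18 cases, 10 lower and 7 higher, by small amounts from -0.37 for Yars to 0.35 for Rars. That is 94.4% called, against 55.1% of all genes and 69.9% of those at 30 CPM or more.

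In NODAL signalling, which patterns the early embryo, ligand, co-receptor and inhibitors differed in direction. The ligand gene Nodal was not called (-0.07, adjusted p = 0.229, edgeR, 0.0453 with scaling by total count alone and 0.0449 on the log2(FPKM + 1) scale), Gdf3 was higher and Tdgf1 lower as above, and the feedback inhibitor gene Lefty2 measured 42.9, 42.5 and 43.0 CPM in sh-Pfkp against 58.9, 63.5 and 59.2 CPM in sh-Lin41 (log2 fold change -0.50, SE 0.0424, adjusted p = 8.8e-12). Both groups were below the control mean of 113 CPM for Lefty2. The inhibitory SMAD gene Smad7 was lower (-0.46) and the transcription partner gene Foxh1 higher (0.31), and 7 of 15 tested members were lower and 3 higher.

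In BMP signalling 7 of 16 tested members were lower and 0 higher in sh-Pfkp (median -0.24). The share called was 43.8%, under the 55.1% of all genes called in either direction. At an unadjusted p under 0.05 edgeR gave 8 lower and 0 higher, and after adjustment DESeq2 called 6 and limma-voom 8 lower, with 0 higher by either. The receptor genes Acvrl1 (-1.10) and Bmpr2 (-0.44) and the target Msx2 (-1.16) led, and the targets Id1, Id2 and Id3 were not called. Acvrl1 averaged 2.04 CPM in sh-Pfkp, 4.37 CPM in sh-Lin41 and 9.68 CPM in sh-ctrl, and on the log2(FPKM + 1) scale Acvrl1 was at -0.50 and Msx2 at -0.56. In the WNT list 5 of 20 tested members were higher and 4 lower, a share called of 45.0% that is also under that of all genes. Among them were the ligand gene Wnt7b at 1.36, the transcription factor gene Sp8 at -1.45 and the inhibitor gene Nkd2 at -0.97. These 3 were low genes, and on the log2(FPKM + 1) scale their values were 0.56, -0.40 and -0.32.

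Ier3, a stress and ERK response gene, measured 14.3, 14.7 and 13.9 CPM in sh-Pfkp against 4.02, 3.38 and 4.68 CPM in sh-Lin41 (log2 fold change 1.84, SE 0.110, adjusted p = 2.2e-15), and the controls at 18.5, 19.8 and 18.1 CPM lay on the side of sh-Pfkp. The receptor gene Fgfr2 (0.95) and the ERK target Phlda1 (0.83) were also higher, the feedback inhibitor genes Spred3 (-0.59) and Spry4 (-0.28) were lower, and the FGF and ERK list was split 5 to 5 over 17 members. Among immediate early genes 8 of 15 tested members were lower and 3 higher. Besides Egr1, Jun was lower (-0.51), and the FOS family gene Fosl2 (0.84) and the nuclear receptor gene Nr4a1 (0.41) were higher.

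**Figure D4:**
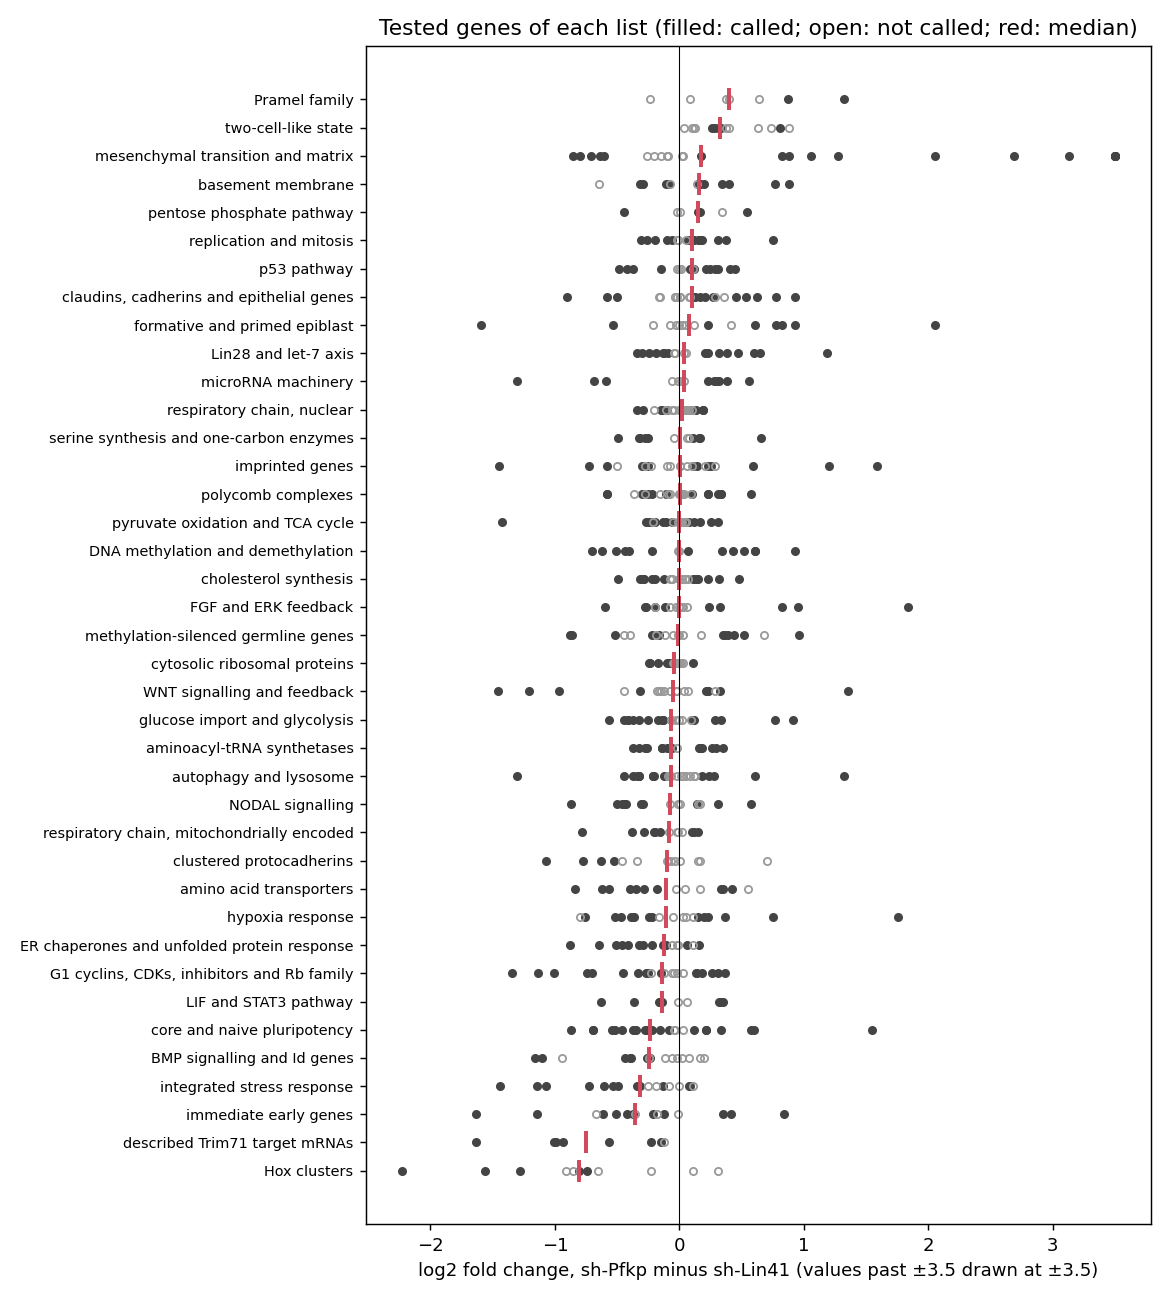
Log2 fold change, sh-Pfkp minus sh-Lin41, of every tested gene in the 39 lists that are not cell type markers, in order of the list's median (red bar). Filled points are called genes and open points genes not called, and values past 3.5 are drawn at 3.5. The medians run from -0.81 for the Hox genes and -0.75 for the described Trim71 targets to 0.40 for the Pramel family, and most lists hold called genes on both sides of 0.

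Hox genes, the patterning factors of the body axis, were near the limit of detection, and 11 of 33 were tested. Of these 5 were lower in sh-Pfkp, 0 higher and 6 not called by edgeR, as by DESeq2 and limma-voom, and at an unadjusted p under 0.05 edgeR gave 7 lower and 0 higher. The share called by edgeR was 45.5%, against 55.1% of all genes. As many as 8 were called lower without sh-Pfkp replicate 3, where 16 passed the filter. Hoxa10 measured 2.11, 2.51 and 2.15 CPM in sh-Pfkp, 7.28, 6.32 and 6.44 CPM in sh-Lin41 and 0.915, 0.959 and 0.927 CPM in the controls (log2 fold change -1.56, SE 0.156, adjusted p = 4.1e-10), so sh-Lin41 was highest and both knockdown groups were above the controls. Hoxa9 (-1.28; -0.57 on the log2(FPKM + 1) scale) and Hoxa7 (-0.81), its neighbours in the cluster, were lower in sh-Pfkp too.

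Marker genes of the two-cell-like state, a rare state of embryonic stem cells that resembles the early embryo, were higher in 5 of 14 tested cases and lower in 0 (6 and 0 at an unadjusted p under 0.05 by edgeR), but the count was 2 with scaling by total count alone or by upper quartile, by DESeq2, or without sh-Lin41 replicate 1, and 3 without any of sh-Pfkp replicates 2 and 3 or sh-Lin41 replicates 2 and 3. The share called in the main analysis was 35.7%, against 55.1% of all genes. Zscan4d measured 12.1, 12.4 and 12.8 CPM in sh-Pfkp against 9.19, 9.503 and 10.9 CPM in sh-Lin41 (0.33, adjusted p = 0.0057 by edgeR), and both groups were above the control mean of 2.09 CPM. On a log2(FPKM + 0.1) scale its adjusted p was 0.0640. The Zscan4 genes are near-identical copies, so reads may be split between them.

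Germline genes that methylation silences were higher in 6 and lower in 5 of 21 tested cases. The meiotic genes Zcwpw1 (16.7 and 30.8 CPM, -0.88), Stra8 (-0.86) and Hormad1 (-0.51) were lower in sh-Pfkp, and Piwil2 (0.52) and Ddx4 (0.44), genes of the piRNA pathway, were higher. Among imprinted genes 7 of 23 were higher and 5 lower, near the background. Peg10, a gene derived from a retrotransposon, measured 911, 899 and 908 CPM in sh-Pfkp against 605, 604 and 599 CPM in sh-Lin41 (log2 fold change 0.59, SE 0.0169, adjusted p = 2.4e-23), with 542 CPM in sh-ctrl. Peg3, a zinc finger gene, was lower (-0.72) and the Notch-like Dlk1, at 2.35 and 1.01 CPM, higher (1.20). In the clustered protocadherins 4 of 14 tested members were lower and 0 higher (4 and 1 at an unadjusted p under 0.05 by edgeR, 3 and 0 called by DESeq2), a share called of 28.6% that is under the background, and 2 were lower without sh-Pfkp replicate 2 or without sh-Lin41 replicate 2. In the Pramel family, genes of the early embryo and germline, 2 of 7 tested members were higher and 0 lower (2 and 0 at an unadjusted p under 0.05 by edgeR), Pramel12 at 0.87 and Pramel45 at 1.32 (0.65 on the log2(FPKM + 1) scale), and 4 were higher without any 1 of the controls, sh-Lin41 replicate 1 or sh-Lin41 replicate 3. In the main analysis 28.6% of the family was called, all higher, near the 27.4% of all genes called higher and under the 55.1% called in either direction. Members of both families share sequence, so reads may be split between them.

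Epithelial genes were higher in 10 and lower in 3 of 24 cases, with 54.2% called. The transcription factor gene Grhl2 measured 37.8, 34.9 and 39.7 CPM in sh-Pfkp against 22.1, 23.2 and 20.04 CPM in sh-Lin41 (log2 fold change 0.78, SE 0.0654, adjusted p = 8.1e-12), and the tight junction gene Cldn4 averaged 39.0 and 25.3 CPM (0.62), while Ocln (-0.90) was lower. In the basement membrane list 8 of 15 tested members were higher and 4 lower. Sparc, a matrix glycoprotein, measured 86.9, 92.5 and 88.7 CPM in sh-Pfkp against 50.7, 47.9 and 46.6 CPM in sh-Lin41 (log2 fold change 0.88, SE 0.0400, adjusted p = 2e-18). Lamb1, a laminin chain, was at 0.77, with the controls highest at 170.0 CPM. Autophagy and lysosome genes were lower in 11 and higher in 5 of 26 cases: Wipi1, which acts in autophagosome formation, was at -1.31 (3.74 and 9.32 CPM) and the lysosomal enzyme gene Hexa at 0.61.

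The summed levels of several lists of lineage markers were higher in sh-Pfkp. A sum is set mostly by the most abundant members, so it does not describe a list as a whole. The 20 cardiomyocyte markers summed to 32.6 to 33.7 CPM in sh-Pfkp, 20.5 to 23.2 CPM in sh-Lin41 and 16.6 to 18.1 CPM in the controls, with 3 of 6 tested members higher (Myh6, a cardiac myosin, at 1.00) and 4 members at 0 in sh-Pfkp. The 20 extraembryonic endoderm markers summed to 792 to 799 CPM in sh-Pfkp against 634 to 639 CPM in sh-Lin41, with the controls between at 728 to 739 CPM. Of 14 tested members 6 were higher and 2 lower. The higher ones include Sparc and Lamb1, given above with the basement membrane genes, and the lower ones include Gata4. Markers of neuroectoderm and neurons summed to 528 to 543 and 411 to 417 CPM, with the controls at 430 to 436 CPM. As given above, 4 of their 11 tested members were higher and 3 lower. Of the primitive streak and mesoderm markers 7 of 16 were tested and 1 was called on each side, with the streak gene Evx1 higher (1.35; 0.44 on the log2(FPKM + 1) scale).

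The definitive endoderm list summed to 438 to 455 CPM in sh-Pfkp against 354 to 360.1 CPM in sh-Lin41, with the controls at 370 to 376 CPM. Of its 8 tested members 2 were higher, the peptide hormone gene Trh at 0.48 and Kit, and 6 were not called. Kit lost its call in 10 of the 21 other settings, among them DESeq2 and scaling by total count alone. Its median log2 fold change was -0.002, so the higher sum was no rise of the list as a whole. The trophoblast list summed to 81.7 to 84.6 and 62.9 to 66.9 CPM, beside 80.6 to 88.7 CPM in the controls, so sh-Lin41 was the low side. Of 9 tested members 2 were higher and 1 lower (4 higher without sh-Pfkp replicate 1 or without sh-Lin41 replicate 1). The blood and endothelium list summed to 44.6 to 48.1 and 37.1 to 40.3 CPM, both below the controls at 55.5 to 57.6 CPM, with 3 of 7 higher. Each of these 3 lost its call in some settings: Cd34 in 7 of the 21 others, Pecam1 in 2 and Tek in 1. The germ cell list summed to 287 to 300.5 and 273 to 284 CPM, beside 266 to 272 CPM in the controls. Of its 10 members 4 were higher, Kit again among them, and 3 lower. The part of any of these cells in the differences above was not tested.

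Called genes were spread over the chromosomes, with 2 larger departures seen in the data. The median log2 fold change of the 19 autosomes lay between -0.04 and 0.02. The X chromosome was slightly below that range, at -0.06, with 121 of 478 genes higher and 154 lower. The 13 genes of the mitochondrial genome had a median of -0.08, with 3 higher and 6 lower. Of 8 tested genes on the Y chromosome 7 were higher in sh-Pfkp and 0 lower, with a median of 0.44; between 5 and 7 were higher without 1 of the 9 libraries, 1 was lower without sh-Pfkp replicate 2, and 4 were higher on the log2(FPKM + 1) scale. The counts were 7 and 0 at an unadjusted p under 0.05 by edgeR and 6 and 0 called by DESeq2. Uba1y, a Y-linked ubiquitin-activating enzyme, measured 36.1, 36.8 and 32.5 CPM in sh-Pfkp, 6.93, 8.35 and 7.43 CPM in sh-Lin41 and 34.9, 30.9 and 33.2 CPM in the controls (log2 fold change 2.21, SE 0.0785, adjusted p = 3.5e-21). Zfy1, a Y-linked zinc finger gene named after its values were seen, averaged 5.44, 1.36 and 4.94 CPM in the same order (2.00, and 0.95 on the log2(FPKM + 1) scale). For both genes sh-Lin41 was the low side, while Uty (0.44) and Ddx3y (0.43) on the same chromosome differed far less.

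The second departure was a run of neighbouring zinc finger genes on chromosome 4, chosen after its values were seen. Of 20 tested zinc finger genes between Tnfrsf8 and Plod1 in the GENCODE M21 order, 18 were higher in sh-Pfkp, 0 lower and 2 not called, with a median of 0.50. Over the 330 other tested genes with a Zfp symbol 93 were higher, 67 lower and 170 not called, with a median of 0.04. Zfp600 measured 409, 406 and 407 CPM in sh-Pfkp, 219, 233 and 236 CPM in sh-Lin41 and 222, 228 and 222 CPM in the controls (log2 fold change 0.83, SE 0.0238, adjusted p = 2.4e-23). Rex2 measured 538, 566 and 561 CPM in sh-Pfkp, 331, 339.9 and 323 CPM in sh-Lin41 and 315, 317 and 316 CPM in the controls (log2 fold change 0.74, SE 0.0218, adjusted p = 3.9e-23). In both genes sh-Lin41 was near the controls and sh-Pfkp alone was high, whereas Zfp981 (195, 102 and 120.2 CPM in sh-Pfkp, sh-Lin41 and sh-ctrl, 0.93) lay above the controls in sh-Pfkp and below them in sh-Lin41. The genes of this run are close copies of each other, so reads may be shared among them and the 18 are not independent; between 16 and 18 were higher and 0 lower under each other setting run, and 18 higher and 0 lower at an unadjusted p under 0.05 by edgeR.

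**Figure D5:**
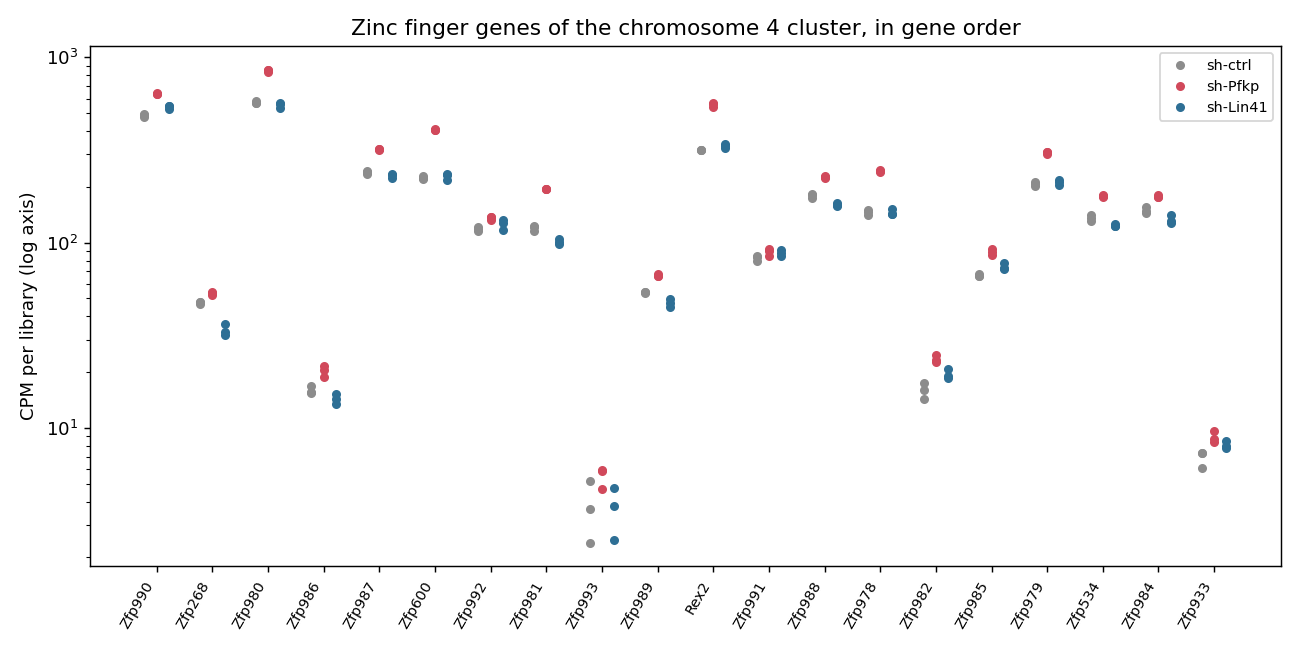
CPM by library (log axis) of the 20 tested zinc finger genes of the chromosome 4 run, in gene order from left to right, for sh-ctrl (grey), sh-Pfkp (red) and sh-Lin41 (blue), 3 libraries each. The sh-Pfkp libraries lie highest for nearly all genes, most clearly for Zfp980, Zfp600, Zfp981, Rex2 and Zfp978, and Zfp991 and Zfp933 were not called.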

How the data were processed

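Total RNA of 9 libraries was sequenced, and 6 of these, 3 sh-Pfkp and 3 sh-Lin41, were compared. Per the submitters' processing notes, the tools included RSEM and HISAT2 (no version), StringTie 1.3.1, Bowtie2 2.2.8 and fastp 0.18.0. Build, annotation and strand setting: not given in the sources used here. The authors deposited whole-number read counts per gene, per the file headers, which may be estimated counts that were rounded, and FPKM values, used in alternatives only. The 2 deposited tables were joined by gene identifier, and the control columns they share held identical values.

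edgeR 4.0.16 (R 4.3.3) fitted counts of all 9 libraries in 3 groups, with filterByExpr, TMM scaling, the quasi-likelihood test and Benjamini-Hochberg adjustment over the 13158 genes tested. The biological coefficient of variation was 0.02134. Library totals ran from 15495194 to 20607683 counts, so 3 counts, the limit that a count of 0 allows, were 0.146 to 0.194 CPM. The script was tested on simulated counts. Alternatives used DESeq2 1.42.0 and limma 3.58.1, with limma-trend on log2(FPKM + 1) or log2(FPKM + 0.1). Replicates of a group differed by more than counting noise. Named genes were the 2 targets, the 12 furthest called genes in each direction with a mean of at least 1 CPM and groups that do not overlap, and up to 3 called genes in each direction per list. The members and the 48 gene lists were chosen with earlier results of these data known.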

Additional observations from a re-analysis of the deposited data

How the results depend on the processing

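A minimum of 2-fold moved the counts most: with it, 193 genes were higher and 398 lower. Leaving out 1 library at a time gave 3417 to 3732 genes higher and 3283 to 3595 lower. The counts were 2939 and 4387 with scaling by total count alone, 3042 and 4244 by upper quartile, 3270 and 3005 by DESeq2 and 2409 and 3490 by limma-trend on log2(FPKM + 1), within 1.5 times the main counts, with 2 shared calls of opposite sign on the FPKM scales and 0 under every other setting. Replicate numbers gave no sign of pairing: deviations of same-numbered libraries correlated at -0.058, -0.051 and 0.014 across 9069 genes, and those of differently numbered ones at up to 0.069. With 3 libraries a group such values cannot exclude a shared culture or day, on which the labels are silent. With a replicate block the counts were 3570 higher and 3626 lower over 9 libraries, and 3602 and 3479 over the 6 knockdown libraries. Of the 248 genes named by the rule, none changed sign, 194 were under the 2-fold minimum, and 104 values lost the call over the other settings. At this depth a gene read under 3 times in a library was not told from 0.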

Other observations

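The genes below were chosen after their values were seen and stand as values alone. Both metallothionein genes, which encode metal-binding proteins, were higher in sh-Pfkp: Mt1 measured 86.4, 83.3 and 81.7 CPM in sh-Pfkp, 36.1, 36.7 and 37.5 CPM in sh-Lin41 and 66.8, 73.5 and 66.1 CPM in the controls (log2 fold change 1.19, SE 0.0443, adjusted p = 1.2e-20, edgeR), and Mt2 averaged 239, 115 and 177 CPM in that order (1.06). The zinc transporter gene Slc30a2 measured 21.0, 22.4 and 18.9 CPM in sh-Pfkp against 7.23, 7.57 and 7.71 CPM in sh-Lin41 (log2 fold change 1.47, SE 0.0904, adjusted p = 4.8e-15). For Mt1 and Mt2 sh-Lin41 was below the controls and sh-Pfkp above them, and for Slc30a2 sh-Pfkp alone was high.

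Ak4, a mitochondrial adenylate kinase, measured 281, 278 and 286 CPM in sh-Pfkp, 123, 127 and 128 CPM in sh-Lin41 and 267, 276 and 274 CPM in the controls (log2 fold change 1.16, SE 0.0252, adjusted p = 1.6e-26), so sh-Lin41 alone was low. The neuropilin gene Nrp2 had the same order, at 75.3, 25.5 and 65.7 CPM (1.56). The connexin gene Gja1 averaged 114 CPM in sh-Pfkp, 48.1 CPM in sh-Lin41 and 68.0 CPM in sh-ctrl (1.24). Lower in sh-Pfkp were Pck2, the mitochondrial PEP carboxykinase, at 14.5, 32.5 and 24.7 CPM (-1.16), the proline synthesis enzyme gene Pycr1 (-1.29) and the creatine transporter gene Slc6a8 (-0.86).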
